A study of Mus musculus with 12 samples.

Results

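Polyamine synthesis and methionine salvage were followed in liver through 10 named genes, of which 8 were measured: Odc1, Srm, Azin1, Sat1, Mtap, Apip, Enoph1 and Adi1. The genes were chosen by name, and each was read from the probe sets annotated to that symbol alone, out of 19938 genes read in this way. Amd1 and Sms had no such probe set and were not analysed here. The 12 liver RNA samples came from male C57BL/6N mice aged 110 days, taken after 6 hours without food. Mice were homozygous for the Lmna G609G allele (KI, LmnaG609G/G609G), a knock-in used as a model of Hutchinson-Gilford progeria that every tissue carries, or were wild type (WT), both bred from heterozygous parents. From 7 weeks of age they ate a methionine-restricted diet (MR) or a control diet (CD). The 4 groups of 3 arrays are KI_MR, KI_CD, WT_MR and WT_CD. Whether the 3 arrays of a group come from 3 different mice is not stated in the labels, and the p-values cover only the variation among these arrays, part of which may be technical.

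Polyamines are small positively charged molecules that bind nucleic acids and are needed for growth and translation. Ornithine decarboxylase, encoded by Odc1, makes putrescine from ornithine. Decarboxylated S-adenosylmethionine is made from S-adenosylmethionine, a metabolite of the methionine cycle. It then donates the aminopropyl groups that turn putrescine into spermidine (the Srm reaction) and spermine (the Sms reaction). Each transfer leaves methylthioadenosine, which the salvage enzymes encoded by Mtap, Mri1, Apip, Enoph1 and Adi1 turn in successive steps into a keto acid. An aminotransferase then turns this keto acid into methionine. The pathway therefore spends a derivative of the amino acid that was restricted in this study, and recovers it. The arrays measure transcript levels, and neither enzyme activity nor polyamine content was measured.

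Values are deposited array intensities in arbitrary units, which have no common scale between probe sets, so each gene is compared with itself. Array medians lay between 82 and 90 units. All 8 genes lay above the lower quartile of gene levels on each of the 12 arrays. Among hepatocyte markers 7 of 8 were measured, and their summed intensity was 79048 to 81446 units in KI_MR, 79432 to 85957 in KI_CD, 72346 to 78826 in WT_MR and 77635 to 82837 in WT_CD. Of the lists for other cell types, only that of stellate cells and fibroblasts (7 of 7 measured) had a member past the test, 1 in the average of knock-in minus wild type. Erythroid markers (2 of 5 measured) summed to 285 to 742 units in KI_MR, 524 to 697 in KI_CD, 563 to 732 in WT_MR and 1160 to 1385 in WT_CD, so that the WT_CD group stood apart. Macrophage and Kupffer cell markers (8 of 8 measured) summed to 8791 units on WT_MR replicate 3, the highest of the 12 arrays. They summed to 5787 and 4724 units on the other WT_MR arrays. Cholangiocyte markers (5 of 6 measured, 2 of them below the lower quartile) summed to 766 units on KI_MR replicate 3, against 361 and 425 on the other KI_MR arrays. The part of these markers in the results below was not tested. Lmna itself had 216 to 330 units on the 6 KI arrays and 162 to 198 on the 6 WT arrays, but its probe set cannot tell the mutant transcript from the normal one and so checks no label. KI_CD replicate 1 stood apart, with a mean correlation across genes of 0.986 with its own group, and its proliferating-cell markers (5 of 6 measured, 4 of them below the lower quartile) summed to 560 units, against 200 and 193 units on the other KI_CD arrays and 225 to 252 in WT_CD. Values without this array are given beside the larger values of the 8 genes.

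Sequence before the gene start is shown for 3 of the 8: the gene of the first committed step (Odc1), that of the acetylating enzyme (Sat1) and the salvage gene with the smallest p-value among the 8 (Apip). The sequences are from RefSeq, build GRCm38.p6, written 5′ to 3′ on the strand of the gene, with matches to the motifs searched in capitals. The promoter table gives 250 bases before the start of 1 transcript. For Sat1 (chrX:155216450-155216699, minus strand) and Apip (chr2:103073425-103073674, plus strand) that start is the outermost start of the gene. For Odc1 the last 65 bases of the window lie past the outermost start, and the 185 bases before it are shown (chr12:17544623-17544807, plus strand).
Odc1: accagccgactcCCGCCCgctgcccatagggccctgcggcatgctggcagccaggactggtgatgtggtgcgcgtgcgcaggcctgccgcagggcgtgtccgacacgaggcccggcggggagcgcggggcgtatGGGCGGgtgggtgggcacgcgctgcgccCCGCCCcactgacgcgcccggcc
Sat1: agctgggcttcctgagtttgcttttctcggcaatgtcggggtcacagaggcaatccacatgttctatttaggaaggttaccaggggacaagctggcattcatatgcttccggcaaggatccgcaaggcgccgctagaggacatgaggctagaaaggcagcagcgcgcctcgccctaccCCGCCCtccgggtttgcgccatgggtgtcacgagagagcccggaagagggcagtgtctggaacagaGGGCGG
Apip: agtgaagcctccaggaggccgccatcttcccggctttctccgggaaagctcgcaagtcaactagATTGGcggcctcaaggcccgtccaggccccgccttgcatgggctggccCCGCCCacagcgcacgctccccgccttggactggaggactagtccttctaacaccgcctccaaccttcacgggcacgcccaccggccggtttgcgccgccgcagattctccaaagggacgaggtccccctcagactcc

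Of the 8 genes, 5 matched an entry of the promoter table (Odc1, Sat1, Mtap, Apip and Enoph1), and the whole Enoph1 window lies past the outermost start of its gene. The GC box GGGCGG was found on either strand in 4 of these 5 windows, all but that of Mtap, and in 32.7% of 32851 windows of the same length. The Odc1 window of 250 bases held 4 of them, 3 in the stretch shown, and was 80.0% G or C, against a median of 52.4% over all windows. CCAAT occurred in 3 of 5 (Mtap, Apip and Enoph1) and in 33.8% of all windows. No match was found in the 5 windows to the E-box CACGTG (6.02% of all windows), the amino acid response element TGATGNAAT (0.816%), the antioxidant response element core TGACNNNGC (10.2%) or the TATA box TATAAA (12.4%). No 2 matches overlapped. A match describes letters in these windows and shows no binding.

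No member of the pathway changed past the test in any of the 7 comparisons made. The comparisons were the knock-in against wild type on each diet, the restricted against the control diet in each genotype, the interaction of diet with genotype, and the average effect of each. Of the 56 values, 0 had a limma adjusted p under 0.05 and 3 had an unadjusted p under 0.05, with no other tool run. Over the 4 comparisons of single groups the log2 changes ran from -0.39 to 0.28, and all 32 of their 95% intervals (-0.78 at the lowest and 0.83 at the highest) lay inside a 2-fold change. Of all 56 intervals 55 did so. That of the Odc1 interaction (-0.28 ± 0.41, 95% interval -1.19 to 0.62) reached past a 2-fold change. The intervals inside a 2-fold change leave room for changes of a smaller size, and the missed threshold does not show that the levels were equal.

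**Figure D1:**
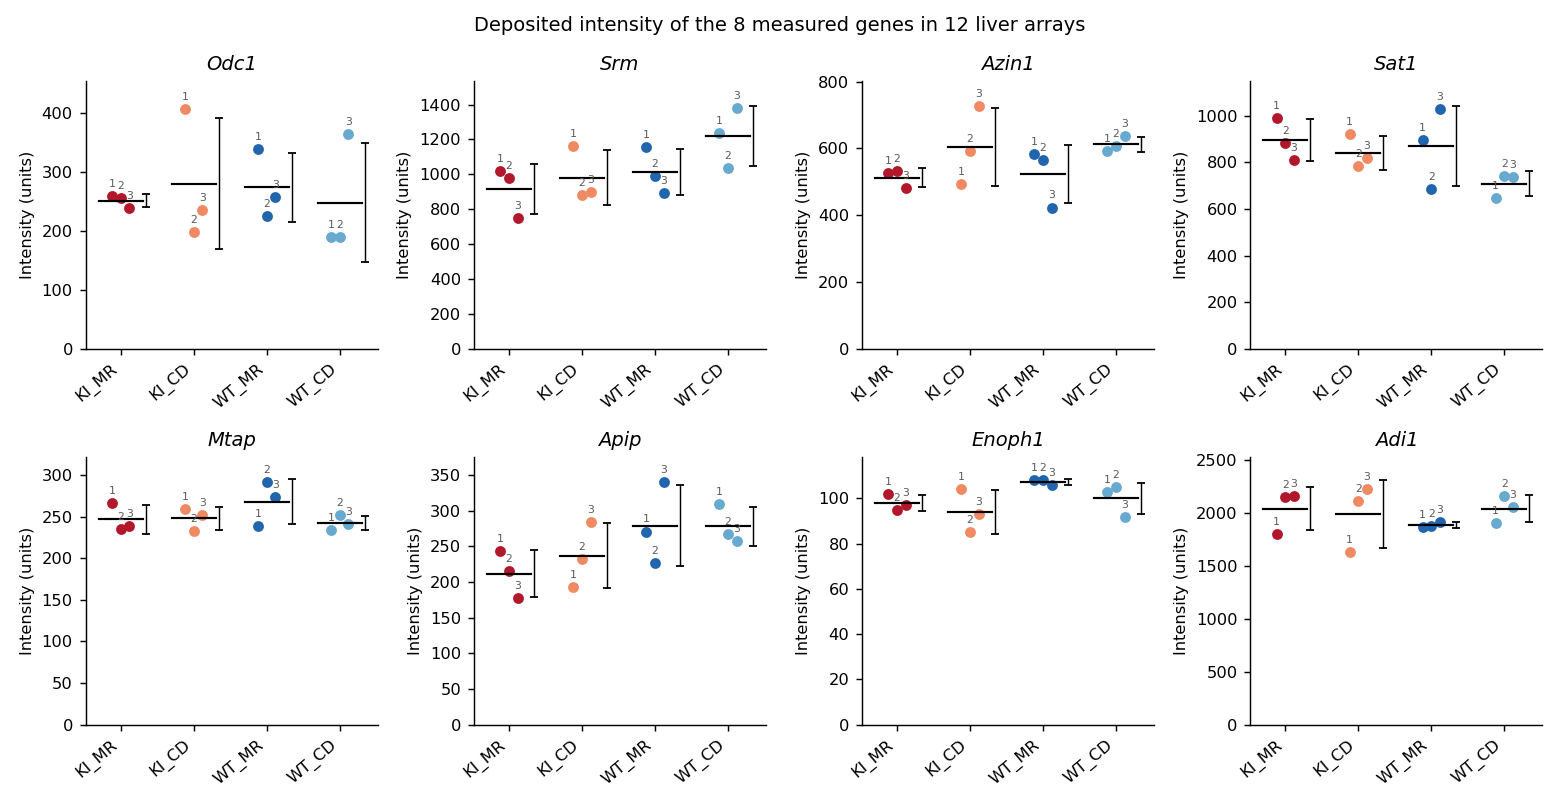
Intensity in units (vertical axis, from 0) of the 8 genes on the 12 arrays by group; points are arrays numbered by replicate, the black line is the group mean and the bar beside it ± 1 SD (n = 3). Odc1 ranges from 189 to 407 units with the groups overlapping, and Sat1 in WT_CD (646 to 740 units) lies below both KI groups.

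Odc1 encodes the enzyme of the first committed step. Its intensity was 259, 255 and 238 units in KI_MR, 407, 198 and 235 in KI_CD, 338, 225 and 257 in WT_MR, and 189, 190 and 364 in WT_CD. All groups overlapped, and a single array was high in KI_CD, in WT_MR and in WT_CD, while the KI_MR arrays lay close together. The change was 0.18 ± 0.29 (log2, SE) for KI_CD minus WT_CD and 0.19 ± 0.29 for WT_MR minus WT_CD (limma adjusted p = 0.816 and 0.984). Without KI_CD replicate 1 the KI_CD change of Odc1 was -0.13, and without WT_CD replicate 3 it was 0.49, so leaving out a single array turned its direction. For WT_MR minus WT_CD the Odc1 value ran from 0.03 (without WT_MR replicate 1 or WT_CD replicate 1) to 0.51 (without WT_CD replicate 3). The other Odc1 probe set gave 0.06 for KI_CD minus WT_CD and 0.17 for WT_MR minus WT_CD.

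Srm encodes spermidine synthase. It had 1018, 980 and 749 units in KI_MR, 1165, 879 and 901 in KI_CD, 1158, 990 and 892 in WT_MR, and 1237, 1039 and 1379 in WT_CD. The WT_CD mean of Srm was the highest and the KI_MR mean the lowest, and each group overlapped its neighbour in that order. The change was -0.31 ± 0.16 for KI_CD minus WT_CD (limma adjusted p = 0.477). It was -0.44 without KI_CD replicate 1 and -0.22 without WT_CD replicate 3. For WT_MR minus WT_CD it was -0.26 ± 0.16 (limma adjusted p = 0.781). That value was -0.37 without WT_CD replicate 2 and -0.17 without WT_CD replicate 3. Over both diets the knock-in average was -0.23 ± 0.11 (adjusted p = 0.246, 95% interval -0.48 to 0.01).

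Azin1 encodes antizyme inhibitor, a relative of ornithine decarboxylase without its activity that frees the enzyme from antizyme. Its intensity was 526, 531 and 480 units in KI_MR and 493, 593 and 727 in KI_CD. It was 582, 564 and 423 units in WT_MR and 592, 608 and 636 in WT_CD. All WT_MR arrays lay below all WT_CD arrays, while KI_MR and KI_CD overlapped. The average of restricted minus control diet was -0.23 ± 0.10 (unadjusted p = 0.0443, limma adjusted p = 0.435), with -0.22 ± 0.14 in knock-in and -0.24 ± 0.14 in wild-type liver. Leaving out KI_CD replicate 1 put the knock-in value of Azin1 at -0.36, leaving out KI_CD replicate 3 put it at -0.08, and the wild-type value was -0.09 without WT_MR replicate 3. The knock-in averages of Azin1 lay near 0 (-0.03 ± 0.10, 95% interval -0.25 to 0.20).

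Sat1 encodes spermidine/spermine acetyltransferase, which marks polyamines for export or oxidation. It had 991, 885 and 811 units in KI_MR, 924, 783 and 820 in KI_CD, 896, 688 and 1031 in WT_MR, and 646, 740 and 739 in WT_CD. WT_CD was the group with the lowest mean of Sat1, and all KI_CD arrays lay above all WT_CD arrays. The other 3 groups overlapped each other. The change was 0.25 ± 0.14 for KI_CD minus WT_CD (limma adjusted p = 0.506), or 0.18 without KI_CD replicate 1, and 0.28 ± 0.14 for WT_MR minus WT_CD (adjusted p = 0.656). The WT value of Sat1 was 0.15 without WT_MR replicate 3 and 0.44 without WT_MR replicate 2. On the restricted diet KI_MR minus WT_MR was 0.05 ± 0.14, and the interaction was -0.20 ± 0.19 (adjusted p = 1).

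Among the 4 salvage genes of the 8 the largest values were those of Apip, which encodes the dehydratase of the pathway. Apip had 243, 216 and 177 units in KI_MR, 193, 233 and 284 in KI_CD, 271, 227 and 340 in WT_MR, and 309, 268 and 258 in WT_CD. The KI and WT arrays overlapped on both diets, although both KI means were below both WT means. The knock-in average was -0.32 ± 0.12 (0.802-fold, unadjusted p = 0.0257, limma adjusted p = 0.175), with -0.25 ± 0.18 under CD (adjusted p = 0.587) and -0.39 ± 0.18 under MR (adjusted p = 0.348). Leaving out KI_CD replicate 1 put the control diet value of Apip at -0.11, leaving out KI_CD replicate 3 put it at -0.39, and the restricted diet value was -0.24 without WT_MR replicate 3. Between diets Apip was at -0.15 ± 0.18 in knock-in liver, with -0.29 without KI_CD replicate 1 and -0.01 without KI_CD replicate 3, and at -0.01 ± 0.18 in wild-type liver.

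Mtap encodes methylthioadenosine phosphorylase, the entry to salvage. Its intensity stayed between 233 and 292 units on all 12 arrays, a ratio of 1.25 between the highest and the lowest. It was 267, 235 and 239 units in KI_MR, 260, 233 and 252 in KI_CD, 239, 292 and 274 in WT_MR, and 234, 252 and 242 in WT_CD. Every pair of groups overlapped. The change of Mtap was at most 0.14 in size in the 4 comparisons of single groups (WT_MR minus WT_CD, 95% interval -0.05 to 0.33, and 0.08 to 0.22 with single arrays left out).

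Enoph1 encodes the enolase-phosphatase that follows Apip. It was 102, 95 and 97 units in KI_MR, 104, 85 and 93 in KI_CD, 108, 108 and 106 in WT_MR, and 103, 105 and 92 in WT_CD. All WT_MR arrays lay above all KI_MR and all WT_CD arrays, by small amounts. The changes were -0.13 ± 0.08 for KI_MR minus WT_MR (limma adjusted p = 0.477) and 0.10 ± 0.08 for WT_MR minus WT_CD (adjusted p = 0.896).

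Adi1 encodes the dioxygenase that makes the keto acid precursor of methionine. It had 1806, 2151 and 2167 units in KI_MR, 1629, 2118 and 2232 in KI_CD, 1871, 1880 and 1921 in WT_MR, and 1911, 2163 and 2060 in WT_CD. The lowest of all arrays was KI_CD replicate 1, and the group means of Adi1 differed by no more than 0.11 (log2). Its change for KI_CD minus WT_CD was -0.05 ± 0.12, or 0.09 without that array.

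**Figure D2:**
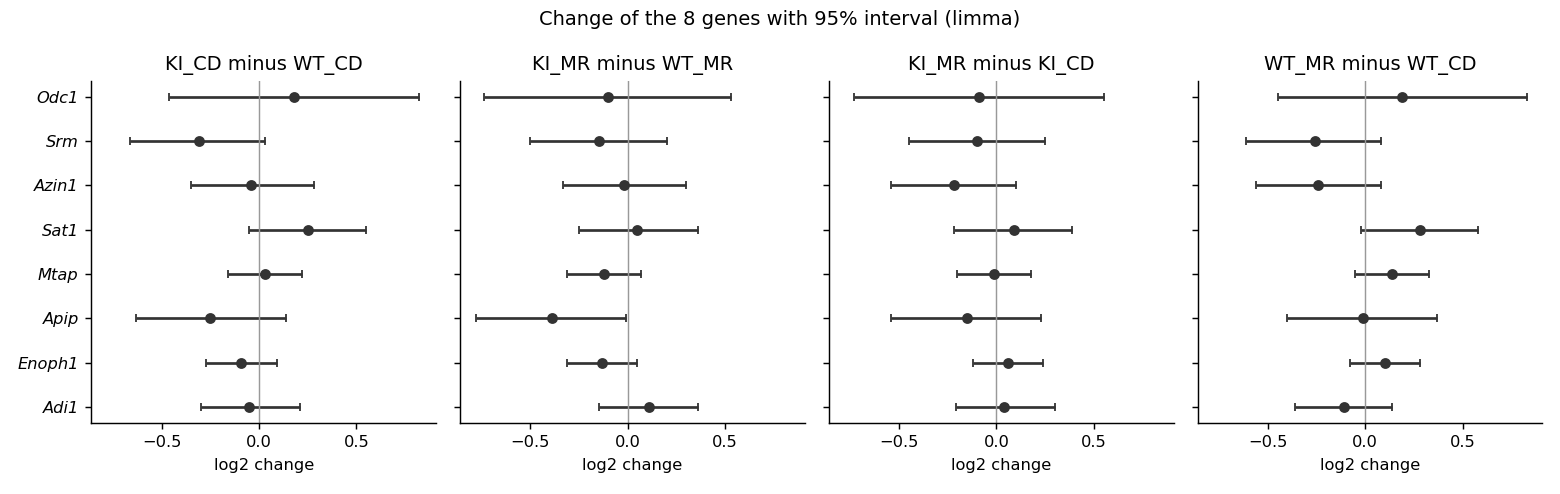
Log2 change of each gene (horizontal axis) with its 95% interval from limma, for KI_CD minus WT_CD, KI_MR minus WT_MR, KI_MR minus KI_CD and WT_MR minus WT_CD. Odc1 has the widest intervals (-0.46 to 0.82 for KI_CD minus WT_CD), and the interval of Apip for KI_MR minus WT_MR (-0.78 to -0.01) alone leaves out 0, before adjustment.

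Counts and medians of the 8 are set here beside those of all genes. In KI_CD against WT_CD 0 of 8 passed by limma, where 0.0802% of all genes did, and 0 of 8 had an unadjusted p under 0.05, against 11.2%. Their median change was -0.04 against -0.02 for all genes. Groups without overlap were found for 1 of 8 (Sat1) and for 19.0% of all genes. In KI_MR against WT_MR 0 of 8 passed (0.471% of all genes), 1 of 8 had an unadjusted p under 0.05 (Apip, lower in KI_MR) against 14.1%, the median was -0.11 against -0.04, and 1 of 8 had no overlap (Enoph1) against 16.3%.

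In KI_MR against KI_CD 0 of 8 passed (0.176% of all genes) and 0 of 8 had an unadjusted p under 0.05 by limma (7.78%), with a median of -0.05 against -0.02, and 0 of 8 had no overlap against 10.7%. In WT_MR against WT_CD 0 of 8 passed (0.326%) and 0 of 8 had an unadjusted p under 0.05 (8.19%), with a median of 0.05 against 0.0. There 2 of 8 had no overlap, Enoph1 higher and Azin1 lower, against 11.5% of all genes. The average of knock-in minus wild type called 0 of 8 (2.81% of all genes), with 1 of 8 at an unadjusted p under 0.05 (Apip; 22.0% of all genes) and 0 of 8 without overlap (2.05%). The average of restricted minus control diet called 0 of 8 (1.21%), with 1 of 8 at an unadjusted p under 0.05 (Azin1; 10.9%) and 0 of 8 without overlap (0.883%). The interaction called 0 of 8, as it did 0.0% of all genes, with 0 of 8 at an unadjusted p under 0.05 by limma, against 4.13% (824 of 19938). These comparisons share groups, and their values are not independent of each other.

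The members differed in how much they varied between arrays of the same group. Odc1 had a within-group SD of 0.41 (log2), larger than that of 97.4% of all genes, whose median was 0.13. Apip followed with 0.24 (89.4% of genes smaller), Srm with 0.22 (85.6%) and Azin1 with 0.20 (80.8%). Mtap (0.10) and Enoph1 (0.09) varied less than the median gene. The widest intervals of the 8 genes were therefore those of Odc1, followed by those of the salvage gene Apip. The narrowest were those of Mtap and Enoph1, which are also salvage genes.

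In each of the 4 groups the array with the highest Odc1 level also had the highest Srm level. These arrays were KI_MR replicate 1 (259 units of Odc1 and 1018 of Srm), KI_CD replicate 1 (407 and 1165), WT_MR replicate 1 (338 and 1158) and WT_CD replicate 3 (364 and 1379). In KI_MR Odc1 differed little between replicates 1 and 2 (259 and 255 units). The other Odc1 probe set, which reads the same RNA samples, was highest on the same 4 arrays, with 254, 350, 291 and 331 units. Srm was the only other member with this pattern, which was picked out after the values were seen and is a description of these arrays; 197 genes other than Odc1 (0.988%), Srm among them, had it.

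**Figure D3:**
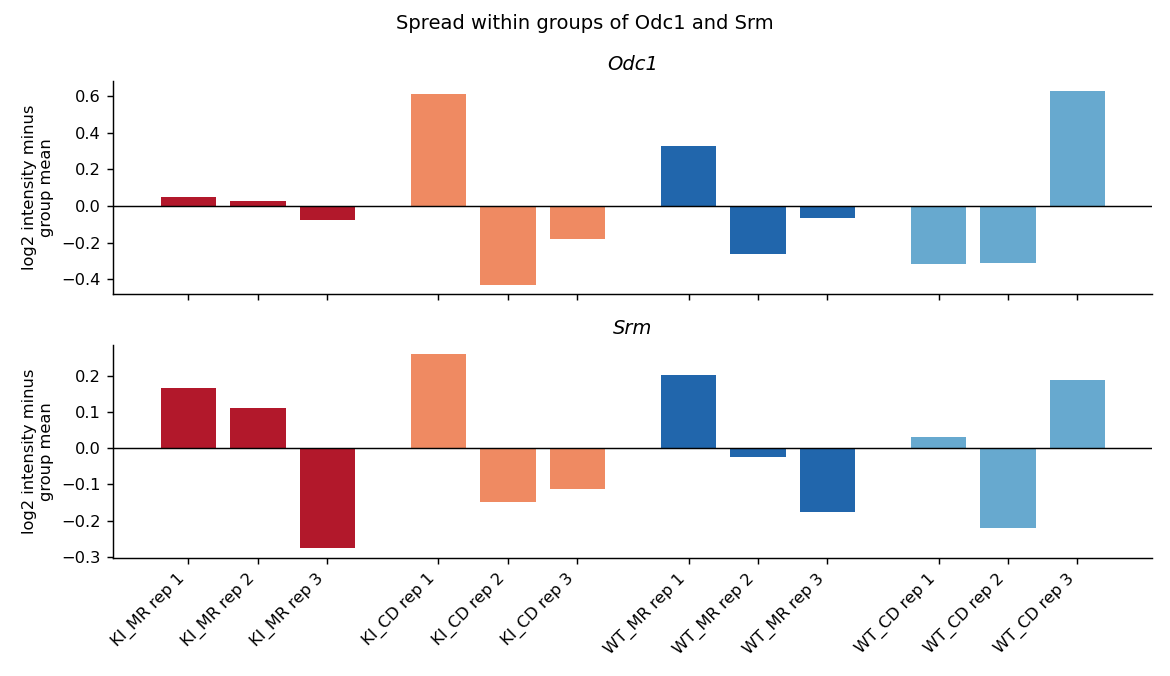
Log2 intensity minus the group mean (vertical axis) of Odc1 and Srm for each of the 12 arrays, coloured by group. The highest bar of each group falls on the same array for both genes: KI_MR replicate 1, KI_CD replicate 1, WT_MR replicate 1 and WT_CD replicate 3. In KI_MR the Odc1 level of replicate 1 (259 units) was close to that of replicate 2 (255 units). The pattern was picked out after the values were seen.

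Since no member passed the test, the genes with the most similar profile were sought for the pair of members with the smallest p-values, Apip and Azin1. Likeness was the root mean square difference of centred log2 levels over the 12 arrays. For Apip the nearest were Mrpl18 (0.124), Dynll2 (0.125) and AW112010 (0.135), set against a root mean square variation of 0.26 of Apip itself. For Azin1 they were Gm9968 (0.0874), Xkr8 (0.0962) and Cpped1 (0.105), against 0.197 of Azin1 itself. Mrpl18 encodes a mitochondrial ribosomal protein and Dynll2 a dynein light chain.

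Around these members, 25 of 28 further genes of polyamine and salvage metabolism were measured, and 1 of them changed past the test. Sat2, named for its likeness to Sat1 and encoding an acetyltransferase whose human form prefers thialysine to polyamines, was higher in the knock-in. It had 362, 420 and 488 units in KI_MR and 342, 364 and 378 in KI_CD. It had 226, 264 and 352 units in WT_MR and 291, 245 and 271 in WT_CD. On each diet all KI arrays lay above all WT arrays, where 19.0% (CD) and 16.3% (MR) of all genes had groups without overlap. Over both diets only WT_MR replicate 3 reached into the KI range. Summed stellate cell and fibroblast markers were 6639 to 7458 units in KI_MR and 5934 to 9008 in KI_CD (9008 on replicate 1, 5934 and 6226 on the others), against 5002 to 5636 in WT_MR and 5757 to 6599 in WT_CD, and their part in the Sat2 difference was not tested. In bulk tissue a change in the share of a cell type cannot be told apart from a change per cell.

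The knock-in average of Sat2 was 0.52 ± 0.11 (1.43-fold, limma adjusted p = 0.0335). On single diets it was 0.61 ± 0.15 for KI_MR minus WT_MR (adjusted p = 0.106) and 0.43 ± 0.15 for KI_CD minus WT_CD (adjusted p = 0.345). In the 12 fits that omit 1 array the average stayed between 0.45 and 0.61, and the call held in 3 of the 12 fits (adjusted p = 0.00967 to 0.0855). The interaction of Sat2 was 0.18 ± 0.22 (adjusted p = 1).

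**Figure D4:**
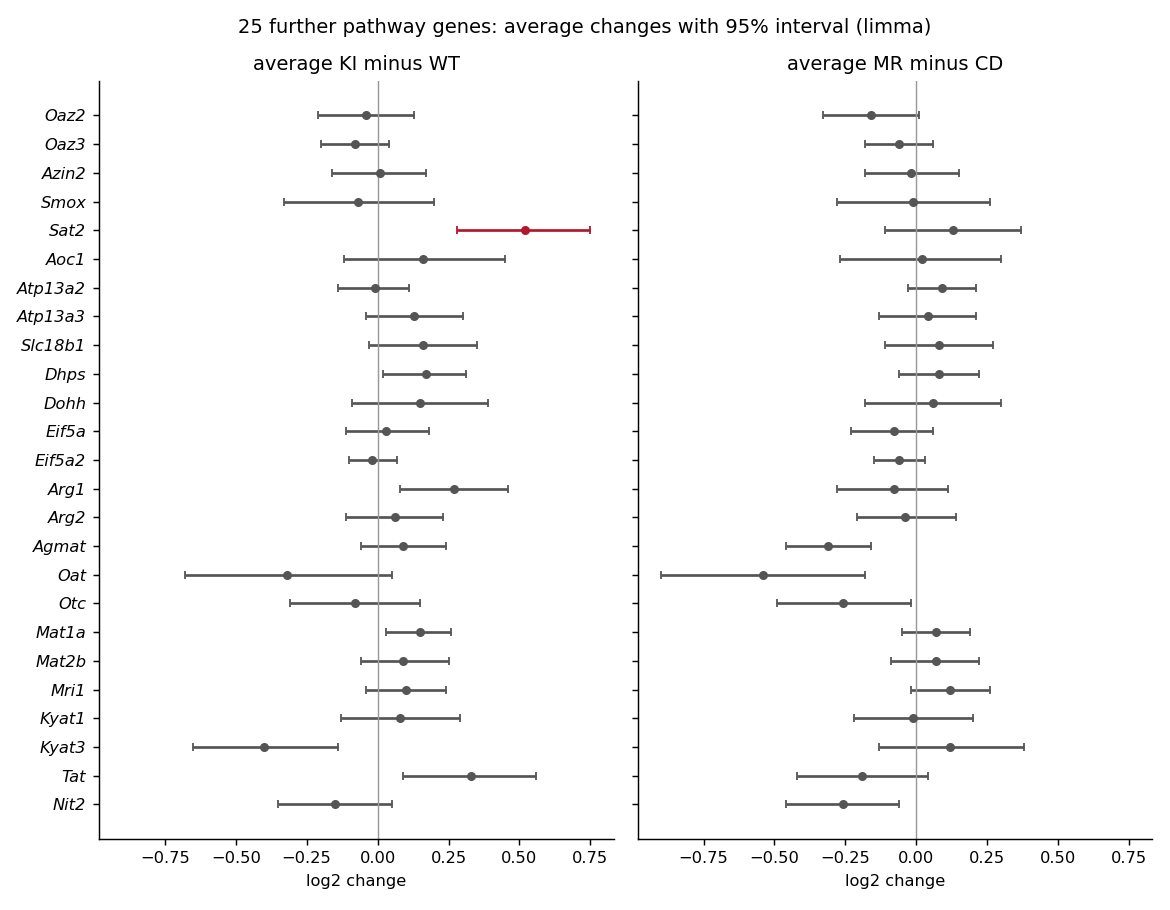
Log2 change (horizontal axis) with 95% interval from limma of the 25 further genes, for the average of KI minus WT and of MR minus CD; red marks a limma adjusted p under 0.05. Only Sat2 is red (0.52, KI minus WT), and Oat (-0.54) and Agmat (-0.31) lie lowest for MR minus CD.

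In the average knock-in comparison 1 of the 25 was higher and 0 were lower, where 2.81% of all genes passed, and 6 had an unadjusted p under 0.05, against 22.0% of all genes. Their median was 0.08 against -0.04 for all genes. Kyat3, which encodes an aminotransferase able to use the keto acid that salvage ends with, was at -0.40 ± 0.12 (limma adjusted p = 0.0943). It had 2609, 2257 and 2705 units in KI_MR and 2435, 1996 and 2448 in KI_CD. It had 4090, 3311 and 2588 units in WT_MR and 2603, 3529 and 3066 in WT_CD. The KI_CD arrays of Kyat3 all lay below those of WT_CD (19.0% of all genes had no overlap there), and the MR groups overlapped. Arg1, the liver arginase gene whose product supplies ornithine, was at 0.27 ± 0.09 (limma adjusted p = 0.116). For KI_MR minus WT_MR it was at 0.38 ± 0.12, and the groups did not overlap (16.3% of all genes).

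In the other 6 comparisons 0 of the 25 passed by limma. At an unadjusted p under 0.05 there were 4 for KI_CD minus WT_CD (11.2% of all genes), 7 for KI_MR minus WT_MR (14.1%), 2 for KI_MR minus KI_CD (7.78%), 3 for WT_MR minus WT_CD (8.19%), 1 for the interaction (4.13%) and 4 for average MR minus CD (10.9%). Groups without overlap were found for 4 of the 25 in KI_CD minus WT_CD (19.0% of all genes) and 3 in KI_MR minus WT_MR (16.3%). They were found for 4 in KI_MR minus KI_CD (10.7%) and 5 in WT_MR minus WT_CD (11.5%).

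The 25 had a median change of -0.01 against -0.01 for all genes in the average of MR minus CD. The lowest p-value in that comparison was that of Agmat, which encodes a hydrolase named for cleaving agmatine to putrescine. It had 2043, 2569 and 2309 units in KI_MR against 2684, 3126 and 3235 in KI_CD, and 2388, 2187 and 2245 in WT_MR against 2829, 2636 and 2601 in WT_CD. All 6 restricted arrays of Agmat (2043 to 2569 units) lay below all 6 control arrays (2601 to 3235), a separation that 0.883% of all genes had in this comparison. The average change was -0.31 ± 0.07 (unadjusted p = 7.23e-04, limma adjusted p = 0.0533), just short of the threshold, with -0.39 ± 0.10 in knock-in and -0.24 ± 0.10 in wild-type liver.

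Oat, which encodes ornithine aminotransferase and so draws on the ornithine that Odc1 uses, had the largest diet value of the 25. It had 2331, 4023 and 2157 units in KI_MR against 5019, 4206 and 6084 in KI_CD, and 4724, 4005 and 4272 in WT_MR against 5853, 5413 and 3794 in WT_CD. KI_MR lay below KI_CD without overlap (10.7% of all genes had none there), and the WT groups overlapped. The change was -0.89 ± 0.23 in knock-in liver (limma adjusted p = 0.23) and -0.19 ± 0.23 in wild-type liver, and the difference between them, the interaction, was -0.70 ± 0.33 (adjusted p = 1). For KI_MR minus WT_MR, Oat was at -0.67 ± 0.23 (limma adjusted p = 0.226), and the groups overlapped. The within-group SD of Oat was 0.33 (log2), larger than that of 95.4% of all genes. Otc, which uses ornithine in the urea cycle, was at -0.38 ± 0.15 for WT_MR minus WT_CD (limma adjusted p = 0.495). Nit2, which encodes an amidase acting after transamination, was at -0.26 ± 0.09 for the average of MR minus CD (adjusted p = 0.27).

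**Figure D5:**
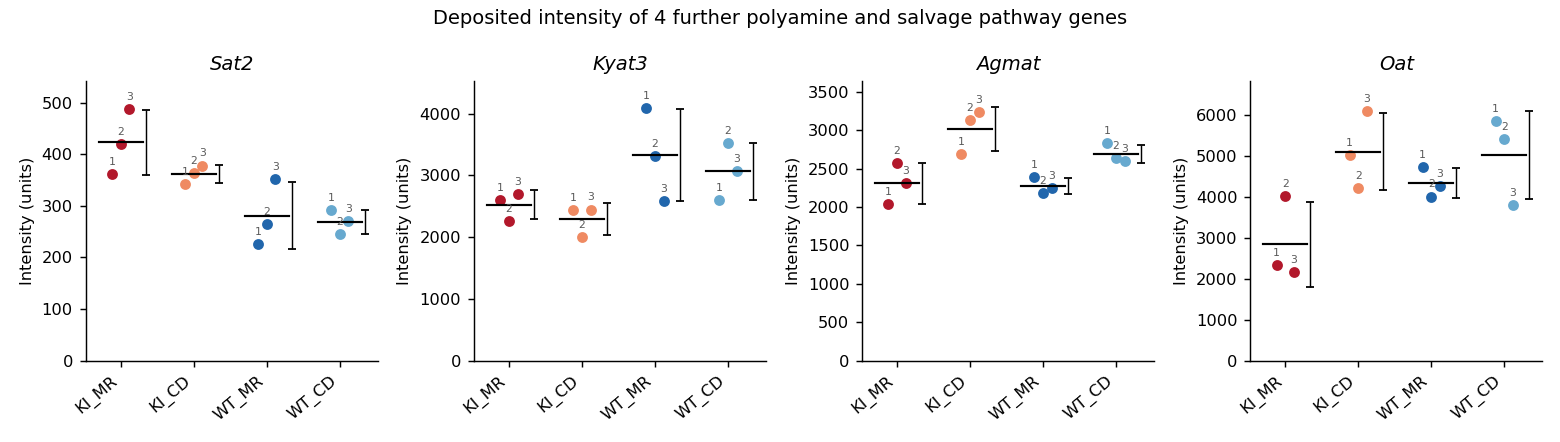
Intensity in units (vertical axis, from 0) of Sat2, Kyat3, Agmat and Oat on the 12 arrays by group; points are arrays numbered by replicate, the black line is the group mean and the bar beside it ± 1 SD (n = 3). Sat2 is higher in the KI groups (342 to 488 units) than in most WT arrays (226 to 352), and Agmat is lower on all MR arrays (2043 to 2569 units) than on all CD arrays (2601 to 3235).

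Mri1, which encodes the salvage isomerase between Mtap and Apip, had its lowest level in WT_CD, as Sat1 did. It had 257, 245 and 204 units in KI_MR, 262, 232 and 229 in KI_CD, 244, 250 and 238 in WT_MR, and 211, 193 and 199 in WT_CD. Both KI_CD and WT_MR lay above WT_CD without overlap, where 19.0% and 11.5% of all genes had groups without overlap in either direction. The changes were 0.26 ± 0.09 for KI_CD minus WT_CD (limma adjusted p = 0.341) and 0.28 ± 0.09 for WT_MR minus WT_CD (adjusted p = 0.334), and the interaction was -0.32 ± 0.13 (unadjusted p = 0.0305, adjusted p = 1). The liver S-adenosylmethionine synthetase gene Mat1a was at 0.19 ± 0.07 for KI_CD minus WT_CD (adjusted p = 0.39). The hypusine enzyme gene Dhps was at 0.26 ± 0.09 for KI_MR minus WT_MR (adjusted p = 0.227) and at 0.18 ± 0.09 for KI_MR minus KI_CD (adjusted p = 0.739). The vesicular polyamine transporter gene Slc18b1 was at 0.31 ± 0.12 for KI_MR minus WT_MR (adjusted p = 0.291), with an interaction of 0.29 ± 0.17 (adjusted p = 1). Outside the rule for naming genes, and added after its values were seen, Tat, which encodes tyrosine aminotransferase, was at 0.33 ± 0.11 for the average of KI minus WT (adjusted p = 0.121).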

How the data were processed

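Liver RNA of 12 samples was measured on arrays and the deposited values were linear probe set intensities, whole numbers from 10 to 20042 units. Per the labels' protocols, frozen liver was lysed in Trizol, total RNA purified by RNeasy, and the target made by in vitro transcription; background correction and scaling are not given in the sources used here. Log2 was taken with no further scaling. Of 35512 probe sets 21789 carried 1 symbol, 1621 several and 12102 none in the platform annotation. Where a gene had several, the brightest on average stood for it. A linear model with 4 group means was run on the 12 arrays together over 19938 genes in limma 3.58.1 (R 4.3.3), with default moderation, two-sided tests and Benjamini-Hochberg adjustment within each of 7 comparisons. An exact test of 3 against 3 arrays cannot give a p under 0.1, and the number of arrays limits all precision. In simulated KI_CD against WT_CD data (5 runs of 200 changed genes) the fit recovered 54.0% of log2 changes of 0.5 and 91.6% of 1. The changed genes were drawn from all genes, whose median within-group SD was 0.13. They outnumbered the 16 genes called in the real comparison. More changed genes ease the adjusted threshold, so recovery in the real comparison may be lower. Recovery at the larger SD of Odc1 (0.41) or Apip (0.24) was not simulated separately. The members, the further gene lists and the naming rule (all members; further genes past the test or among the 3 smallest p-values of a comparison; 3 genes of nearest profile) were chosen with earlier results of these data known. Alternatives covered normalization, dim genes, probe set choice, variance prior, compared arrays alone, replicate block and arrays left out. Promoter windows came from RefSeq. Python 3.11.15, pandas 2.3.3, numpy 2.4.6 and matplotlib 3.10.9 were used.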

Additional observations from a re-analysis of the deposited data

How the results depend on the processing

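No member passed the test under any alternative: the smallest of 904 adjusted p-values was 0.114 (Apip, average of KI minus WT, quantile normalization), and the count of members past the threshold stayed at 0. Of the 904 values 849 kept their sign. The other 55 belonged to 22 of the 56 values, none above 0.28 in size, so the direction of these small changes is not settled. With single arrays left out, Odc1 ran from -0.13 to 0.49 (KI_CD minus WT_CD), -0.23 to 0.06 (KI_MR minus WT_MR), -0.3 to 0.22 (KI_MR minus KI_CD), -0.6 to 0.02 (diet by genotype interaction), -0.12 to 0.19 (average KI minus WT), -0.06 to 0.21 (average MR minus CD). Srm ran from -0.18 to 0.04 (KI_MR minus KI_CD). Azin1 ran from -0.18 to 0.1 (KI_CD minus WT_CD), -0.16 to 0.07 (KI_MR minus WT_MR), -0.13 to 0.16 (diet by genotype interaction), -0.1 to 0.04 (average KI minus WT). Sat1 ran from -0.11 to 0.19 (KI_MR minus WT_MR). Mtap ran from 0.0 to 0.08 (KI_CD minus WT_CD), -0.07 to 0.03 (KI_MR minus KI_CD). Apip ran from -0.16 to 0.13 (WT_MR minus WT_CD), -0.28 to 0.01 (diet by genotype interaction). Enoph1 ran from -0.01 to 0.14 (KI_MR minus KI_CD), -0.11 to 0.04 (diet by genotype interaction). Adi1 ran from -0.14 to 0.09 (KI_CD minus WT_CD), -0.1 to 0.13 (KI_MR minus KI_CD), -0.02 to 0.1 (average KI minus WT), -0.1 to 0.01 (average MR minus CD). Quantile normalization turned Mtap to -0.04 (KI_CD minus WT_CD) and 0.02 (KI_MR minus KI_CD), Odc1 to 0.0 (average KI minus WT) and Adi1 to 0.01 (average MR minus CD). Median centring turned Mtap to 0.02 (KI_MR minus KI_CD), Azin1 to 0.01 (KI_MR minus WT_MR) and 0.0 (average KI minus WT) and Apip to 0.01 (WT_MR minus WT_CD). The mean of both probe sets put Odc1 at -0.02 (average KI minus WT).

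The counts over all genes moved more, and the cause was not tested. With single arrays left out, genes called ran from 2 to 32 for KI_CD minus WT_CD, 3 to 157 for KI_MR minus WT_MR, 7 to 94 for KI_MR minus KI_CD, 17 to 52 for WT_MR minus WT_CD, 0 to 3 for the interaction, 138 to 1945 for average KI minus WT and 112 to 470 for average MR minus CD. Against 16 genes for KI_CD minus WT_CD, 31 were called without the dimmest 25% of genes, 26 with an intensity trend and robust prior and 0 with the compared arrays alone, where 2234 had an unadjusted p under 0.05 in the fit of all arrays. Against 94 for KI_MR minus WT_MR there were 58 with median centring, 177 with the replicate block and 15 with the compared arrays alone. Against 35 for KI_MR minus KI_CD there were 18 with median centring and 0 with the compared arrays alone. WT_MR minus WT_CD gave 131 with the compared arrays alone, against 65, and average KI minus WT 960 with the replicate block, against 561. Arrays with the same replicate number had deviations correlated by over 0.1 in 9 of 18 pairs (range -0.0588 to 0.244). No comparison had all 3 pairs over 0.1. Among the 4 comparisons of single groups, every array correlated best with its own number only in KI_MR against WT_MR and in KI_MR against KI_CD. The same held between KI_CD and WT_MR, which were not compared here (0.049, 0.093 and 0.135 for replicates 1, 2 and 3). Arrays with the same number were treated as sharing a number only. With the replicate block 0 members passed in each of the 7 comparisons. For Sat2, alternatives chosen after seeing the data kept the call in 10 of 19 fits, and for Agmat 3 of 19 passed (adjusted p = 0.0178 to 0.139), among them the fit without KI_CD replicate 1 (-0.36). By the simulation, changes under 0.5 (log2) are at or below the limit of what 3 arrays per group resolve. The limit may lie higher in the real comparisons, and it lies higher for variable genes such as Odc1.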

Other observations

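The 3 genes whose profiles over the 12 arrays lay nearest to that of Odc1 were sought after its values were seen, and are given as a description. They were Tor1b, which encodes a torsin ATPase of the endoplasmic reticulum and nuclear envelope lumen, the hepatocyte transcription factor gene Foxa3, and Acsl4, which encodes an acyl-CoA synthetase. Their root mean square differences from Odc1 were 0.173, 0.197 and 0.215 (log2), against a variation of 0.347 of Odc1 itself. On KI_CD replicate 1 Tor1b had 522 units, Foxa3 691 and Acsl4 1388, each the highest of its 12 arrays. The 3 arrays with the highest Odc1 level, KI_CD replicate 1, WT_MR replicate 1 and WT_CD replicate 3, were also the 3 highest of Tor1b (522, 459 and 439 units) and of Foxa3 (691, 546 and 685 units). For Acsl4 the third was KI_CD replicate 3 (983 units) in place of WT_CD replicate 3 (892 units). These shared high arrays follow largely from the choice of the genes by likeness to Odc1 over the same 12 arrays, and are no separate result.

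The deviation of KI_CD replicate 1 from the mean of the other 2 KI_CD arrays is given for each member as a description. Odc1 was higher by 0.92 (log2), Srm by 0.39, Enoph1 by 0.23 and Sat1 by 0.21. Adi1 was at -0.42, Azin1 at -0.41 and Apip at -0.41, and Mtap at 0.10. For Azin1 (493, 593 and 727 units) and Apip (193, 233 and 284) KI_CD replicate 1 lay below replicate 2 and replicate 3 above it. For these genes the spread in KI_CD was therefore not particular to replicate 1. Across genes replicate 1 had the lowest mean correlation with its own group (0.9855, against 0.9905 and 0.9909 for replicates 2 and 3). The share of such deviations over all genes was not computed.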
